A study of Rattus norvegicus with 25 samples.

Results

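The family of miR-148a, miR-148b and miR-152 comprises the miRNAs made from the rat hairpins Mir148a, Mir148b and Mir152. Every row of the miRNA count matrix named for one of these hairpins was taken, both arms included. This gave 6 of the 562 mature miRNAs listed: rno-miR-148a-3p, rno-miR-148a-5p, rno-miR-148b-3p, rno-miR-148b-5p, rno-miR-152-3p and rno-miR-152-5p. The first 5 had enough reads to pass the filter on low counts, together with 312 other miRNAs, and rno-miR-152-5p did not.

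A miRNA guides Argonaute proteins to messenger RNAs, mostly through its seed, the bases 2 to 8 from its 5′ end, and lowers their stability or translation. The 3p strands of this family share a seed and are best known for repressing DNMT1, the methyltransferase that copies DNA methylation onto newly made strands. rno-miR-148a-3p and rno-miR-148b-3p are also known to repress the de novo methyltransferase DNMT3B. Mature sperm are largely silent in transcription, and their small RNAs are retained from spermatogenesis or taken up from the epididymis.

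The libraries came from mature sperm of the cauda epididymis of Sprague–Dawley rats, purified by a double swim-up, with 25 libraries labelled as biological replicates. The F0 males had self-administered morphine or saline intravenously in daily sessions over a full cycle of spermatogenesis. Sperm was collected at the end of self-administration in the groups F0_SAL (saline, n = 7) and F0_MOR (morphine, n = 7), and after 90 days of abstinence in F0_ABS-SAL (saline, n = 5) and F0_ABS-MOR (morphine, n = 6). No genotype other than the strain was given. The abstinent males were also older, and no label gives the batch of a library, so abstinence, age and batch cannot be told apart. In such bulk RNA, fewer cells of a type and less RNA per cell cannot be told apart either.

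Libraries held 1032386 to 3203211 reads on mature miRNAs. The miRNAs listed here as sperm and germ cell markers were rno-miR-34c-5p, rno-miR-34b-5p, rno-miR-449a-5p and rno-miR-191a-5p. Together they held between 21.9% and 56.4% of these reads, so their sum was high in every library. Averaged over libraries, rno-miR-34c-5p held 38.0%, against 0.133%, 0.929% and 1.32% for the others in that order. The sum thus mainly follows rno-miR-34c-5p. Library R of F0_ABS-SAL and library Q of F0_ABS-MOR held the lowest shares of these markers, 27.5% and 21.9%. The same libraries held the highest shares of the miRNAs listed here for smooth muscle, 8.38% in library R and 4.58% in library Q. These were rno-miR-143-3p, rno-miR-145-5p, rno-miR-1-3p and rno-miR-133a-3p. Averaged over libraries rno-miR-143-3p held 2.14% and each of the others 0.0133% or less, so this sum mainly follows rno-miR-143-3p. It was higher in every abstinent library (1.81% or more) than in every nonabstinent library (1.63% or less). Libraries R and Q were also the richest in rno-miR-148a-3p. Fold changes and ratio differences that rest on them are given with and without them. Group means, shares and the nearest miRNAs are given with them only.

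The mature sequences show why the 3p strands are grouped and how their reads could be told apart. They are printed 5′ to 3′ with the seed in capitals.
rno-miR-148a-3p: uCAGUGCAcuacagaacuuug
rno-miR-148b-3p: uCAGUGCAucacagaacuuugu
rno-miR-152-3p: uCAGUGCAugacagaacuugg
All 3 carry the seed CAGUGCA, which no other of the 693 mature rat miRNAs in the RefSeq table carries at bases 2 to 8. Counted from the 5′ end, rno-miR-148b-3p differs from rno-miR-148a-3p by C9U and U10C, with 19 of 21 bases identical. rno-miR-152-3p differs from rno-miR-148a-3p by C9U, U10G and U20G, with 18 of 21 bases identical, and from rno-miR-148b-3p by C10G and U20G. The authors' alignment allowed a single mismatch. A read of rno-miR-148a-3p or rno-miR-148b-3p with an error at base 9 or 10 can lie equally near to both. For rno-miR-148b-3p and rno-miR-152-3p the same is true of base 10 or 20. For rno-miR-148a-3p and rno-miR-152-3p, which differ at more bases, a single error does not suffice. How such reads were counted is not given in the sources used here, and the split between the 3 members is uncertain to that extent.

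The 5p strands leave the same hairpins and have other seeds than the 3p strands.
rno-miR-148a-5p: aAAGUUCUgagacacucugacuc
rno-miR-152-5p: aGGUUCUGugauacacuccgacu
In the Mir148a hairpin, printed here to show where both strands lie, the capitals mark the 5p strand and then the 3p strand.
Mir148a hairpin: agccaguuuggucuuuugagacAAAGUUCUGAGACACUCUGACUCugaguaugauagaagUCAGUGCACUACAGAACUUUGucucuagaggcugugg
In the Mir148b hairpin the capitals mark the 3p strand.
Mir148b hairpin: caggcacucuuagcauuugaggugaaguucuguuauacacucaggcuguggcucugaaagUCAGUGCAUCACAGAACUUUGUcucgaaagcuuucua
All sequences are those of RefSeq for the assembly GRCr8, in which 5 of the 6 members were matched by name. The Mir148a hairpin lies at chr4:81664431-81664527 on the minus strand and overlaps no other annotated gene. The Mir148b hairpin lies at chr7:136299870-136299966 on the plus strand, within the span of Copz1. rno-miR-152-3p lies at chr10:82329435-82329455 on the plus strand, within the span of Copz2. Copz1 and Copz2 encode zeta subunits of the coatomer coat of transport vesicles. Reads had been aligned by the authors to another assembly, rn6, and the positions were used here only to describe the genes.

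rno-miR-148a-3p was the dominant member. Averaged over the 25 libraries it held 3.70% of all miRNA reads and ranked 3 among the 562 miRNAs. rno-miR-148b-3p held 0.384% and ranked 34, and rno-miR-152-3p held 0.137% and ranked 58. The passenger strands were scarce, with 0.0136% for rno-miR-148a-5p, 0.00279% for rno-miR-148b-5p and 0.000288% for rno-miR-152-5p. The 5 members with a sequence are 21 to 23 bases long. Ligation of adaptors can favour some ends, so these shares compare reads rather than molecules. Of the reads on the 3p strands, rno-miR-148a-3p took 87.6% over all libraries, from 78.9% in the lowest to 94.3% in the highest.

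**Figure D1:**
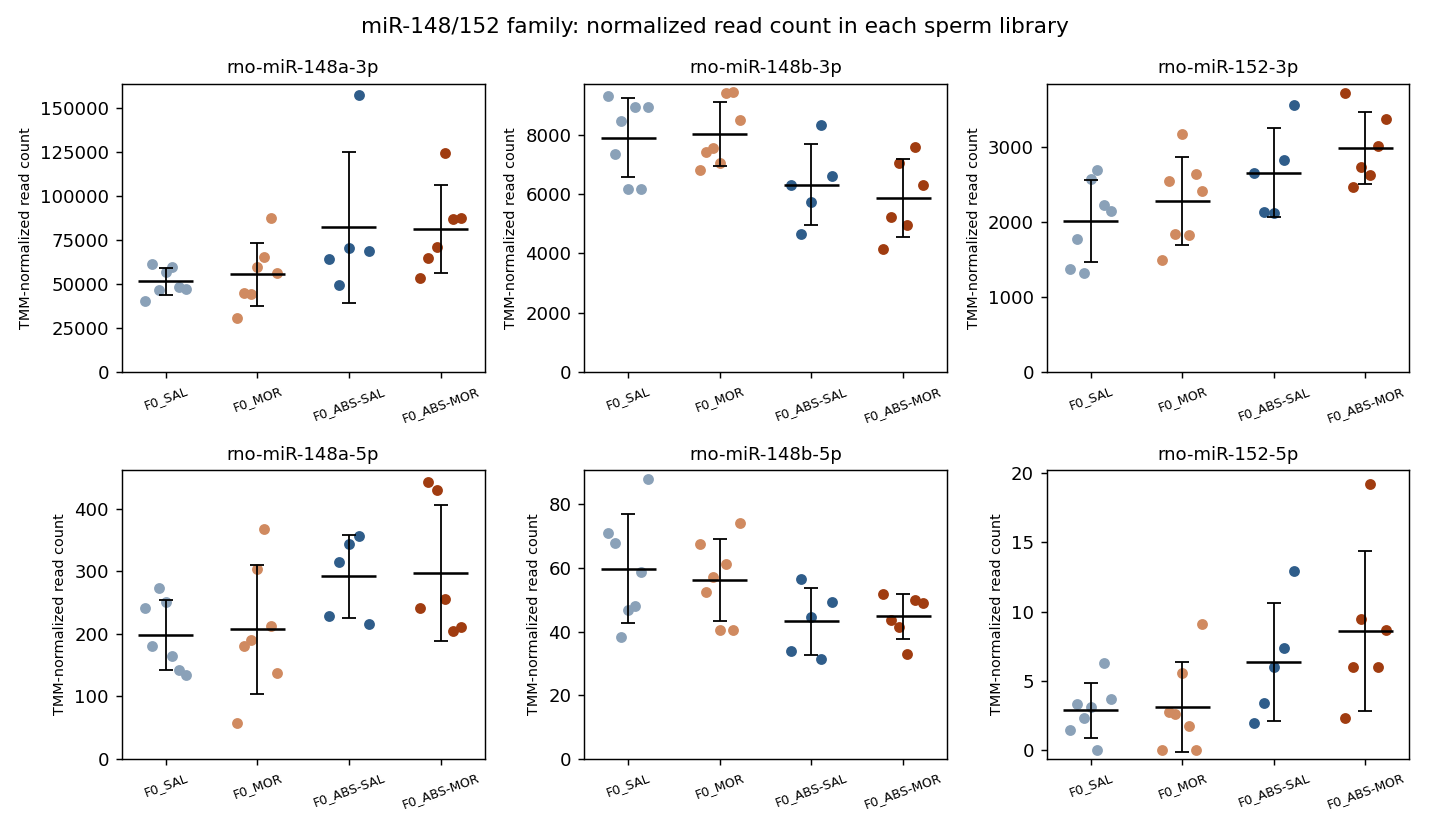
TMM-normalized read count (linear axis) of each of the 6 family members in every library, by group, with 1 point per library, a bar at the group mean and whiskers of 1 SD (n = 7, 7, 5 and 6). rno-miR-148a-3p and rno-miR-152-3p lay higher and rno-miR-148b-3p lower on average in the abstinent groups under TMM scaling (with total count alone the saline log2 difference of rno-miR-148b-3p is 0.04), with overlap between groups in every panel.

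The difference between collection timepoints was examined first, within saline-exposed males. Values are TMM-normalized counts, which are counts rescaled so that most miRNAs keep their level between libraries. rno-miR-148a-3p lay between 40377 and 61405 in F0_SAL, with a median of 48410. In F0_ABS-SAL it was 49746, 64443, 68964, 70256 and 157604. In 4 of 5 abstinent libraries it was above every F0_SAL library, so the groups overlapped by 1 library. For 0 of the 5 members were the groups apart, against 6.94% of all miRNAs tested. Of the abstinent libraries, library R had the highest value and held more than any other library of the 4 groups. The F0_SAL mean was 51514 ± 7857 (SD, n = 7) and that of F0_ABS-SAL 82202 ± 42931 (SD, n = 5), a log2 fold change of 0.67 (SE 0.24, edgeR adjusted p = 0.0386), or 1.60-fold. A call needed a log2 fold change over 0.58 in size together with an adjusted p under 0.1, and rno-miR-148a-3p met both here. It was the 1 member called of 5 tested, in a comparison in which 33.1% of the 317 miRNAs tested were called and 22.4% were called higher after abstinence. DESeq2 also called 1 member, but its count over all miRNAs is not given here, so this is no evidence particular to the family. limma-voom with sample quality weights called 0, beside 95 of all 317 miRNAs tested.

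That call rested on library R. Without it, the log2 fold change of rno-miR-148a-3p was 0.26 (edgeR adjusted p = 0.398). Smooth muscle, endothelial and epithelial markers moved with timepoint in the same comparison. Of the 4 smooth muscle markers 3 were called higher, and their summed normalized count lay between 24988 and 30707 in F0_SAL and between 32234 and 149698 in F0_ABS-SAL. Both endothelial markers, rno-miR-126a-3p and rno-miR-126a-5p, were called higher, with sums between 1003 and 1439 against 1300 and 5183. Of the 5 epithelial markers (rno-miR-200a-3p, rno-miR-200b-3p, rno-miR-200c-3p, rno-miR-141-3p and rno-miR-429) 3 were called higher, with sums between 11675 and 19318 against 15361 and 33752. Of the 4 sperm markers 2 were called lower, with sums between 717371 and 1333570 against 492364 and 706266. Of the 5 leukocyte (rno-miR-142-3p, rno-miR-142-5p, rno-miR-150-5p, rno-miR-155-5p and rno-miR-223-3p) and 2 listed erythroid markers (rno-miR-144-3p and rno-miR-451-5p) 0 were called, with leukocyte sums between 1365 and 2238 against 1417 and 2024 and erythroid sums between 1557 and 4704 against 1101 and 2070. No marker found in the matrix was at 0 in more than 1 library, and rno-miR-486 was not found by that name. The sums of the smooth muscle and of the sperm markers thus had no overlap between F0_SAL and F0_ABS-SAL. The part of the markers in the family's values was not tested.

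In morphine-exposed males the same comparison gave rno-miR-148a-3p between 30976 and 87397 in F0_MOR, with a median of 56025, and between 53229 and 124711 in F0_ABS-MOR, with a median of 79261. The groups overlapped, as they did for each of the 5 members tested here, where 3.47% of all miRNAs tested had no overlap, and 2 of 6 abstinent libraries lay above every F0_MOR library. Means were 55516 ± 18066 (SD, n = 7) and 81522 ± 24951 (SD, n = 6). The log2 fold change of 0.55 (SE 0.23, edgeR adjusted p = 0.0927) fell short of the fold change threshold, so it was not called. By that rule 0 of 5 members were called, against 21.1% of the 317 miRNAs tested, with 11% called higher and 10.1% lower. At an unadjusted p under 0.05 there were 2 members, rno-miR-148a-3p and rno-miR-148b-3p. In the edgeR ranking of all 317 miRNAs, strongest evidence first, these stood at places 78 and 58. At least 78 miRNAs thus passed the same cut, so passing it was common among all miRNAs. DESeq2 called 0 members, and its count over all miRNAs is again not given. limma-voom called 1, rno-miR-148a-5p, beside 90 of all 317 miRNAs tested.

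This value for rno-miR-148a-3p was close to the threshold, and its call depended on single libraries. It passed without F0_MOR library T or U or without F0_ABS-MOR library D or I, and over all 13 fits with a library left out the log2 fold change lay between 0.41 and 0.69. Without libraries R and Q it was 0.40 (edgeR adjusted p = 0.13). Of the marker lists, 1 of 4 smooth muscle, 2 of 2 endothelial and 1 of 5 epithelial miRNAs were called higher in this comparison, and 1 of 5 leukocyte and 2 of 2 listed erythroid miRNAs were called lower. Summed normalized counts in F0_MOR against F0_ABS-MOR lay between 23932 and 32364 against 28698 and 66526 for smooth muscle, and between 1072 and 1346 against 1904 and 2677 for endothelium. They lay between 13342 and 20206 against 15661 and 30967 for epithelium, and between 1643 and 2500 against 1414 and 2264 for leukocytes. For erythroid markers they lay between 1599 and 4068 against 540 and 2231, and for sperm markers, of which 0 were called, between 575523 and 909359 against 318922 and 775088. Endothelial markers thus had no overlap between the groups, and their part in the family's values was not tested.

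rno-miR-148a-5p, the other strand of the same hairpin, was not called in either timepoint comparison. Its normalized count lay between 135 and 274 in F0_SAL, and was 216, 228, 315, 344 and 357 in F0_ABS-SAL. It lay between 57.1 and 368 in F0_MOR and between 204 and 443 in F0_ABS-MOR. Groups overlapped in both comparisons. The log2 fold change was 0.56 (95% confidence interval -0.05 to 1.17) in the saline and 0.52 (-0.06 to 1.11) in the morphine groups, with edgeR adjusted p = 0.149 and 0.196. Without F0_MOR library N the morphine value was 0.71 and passed the criteria.

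The estimates for rno-miR-148b-3p had the opposite sign to those for rno-miR-148a-3p. It lay between 6167 and 9291 in F0_SAL, with a median of 8444, and was 4639, 5716, 6291, 6594 and 8331 in F0_ABS-SAL. In F0_MOR it lay between 6796 and 9451, with a median of 7538, and in F0_ABS-MOR between 4149 and 7579, with a median of 5773. Of the abstinent libraries, 2 of 5 lay under every F0_SAL library and 4 of 6 under every F0_MOR library, with overlap in both comparisons. The log2 fold change was -0.32 (SE 0.18, edgeR adjusted p = 0.154) after abstinence from saline. After abstinence from morphine it was -0.45 (SE 0.17, adjusted p = 0.0618), which passed the p criterion and not that on fold change. With libraries scaled by total count alone, the saline value turned to 0.04, and the morphine value was -0.26.

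The scarce rno-miR-148b-5p had between 21 and 96 raw reads per library. Its log2 fold change was -0.47 (95% confidence interval -0.96 to 0.02) in the saline and -0.33 (-0.80 to 0.13) in the morphine groups, and neither was called. With total count alone the values were -0.06 and -0.15.

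rno-miR-152-3p had a normalized count between 1316 and 2698 in F0_SAL, with a median of 2147. In F0_ABS-SAL it was 2119, 2131, 2653, 2834 and 3555, so 2 of 5 libraries lay above the F0_SAL range. In F0_MOR it lay between 1493 and 3172 and in F0_ABS-MOR between 2466 and 3725. The log2 fold change was 0.40 (SE 0.21, edgeR adjusted p = 0.133) in the saline and 0.39 (SE 0.20, adjusted p = 0.158) in the morphine groups, and neither was called. Its passenger strand rno-miR-152-5p was too scarce to test, with 0 to 7 raw reads per library in the nonabstinent and 2 to 22 in the abstinent groups. It was listed at 0 in library P of F0_SAL and libraries A and T of F0_MOR. The smallest count above 0 in the whole matrix was 2, the minimum set by the authors, so a listed 0 can hide single reads and no upper limit is given.

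**Figure D2:**
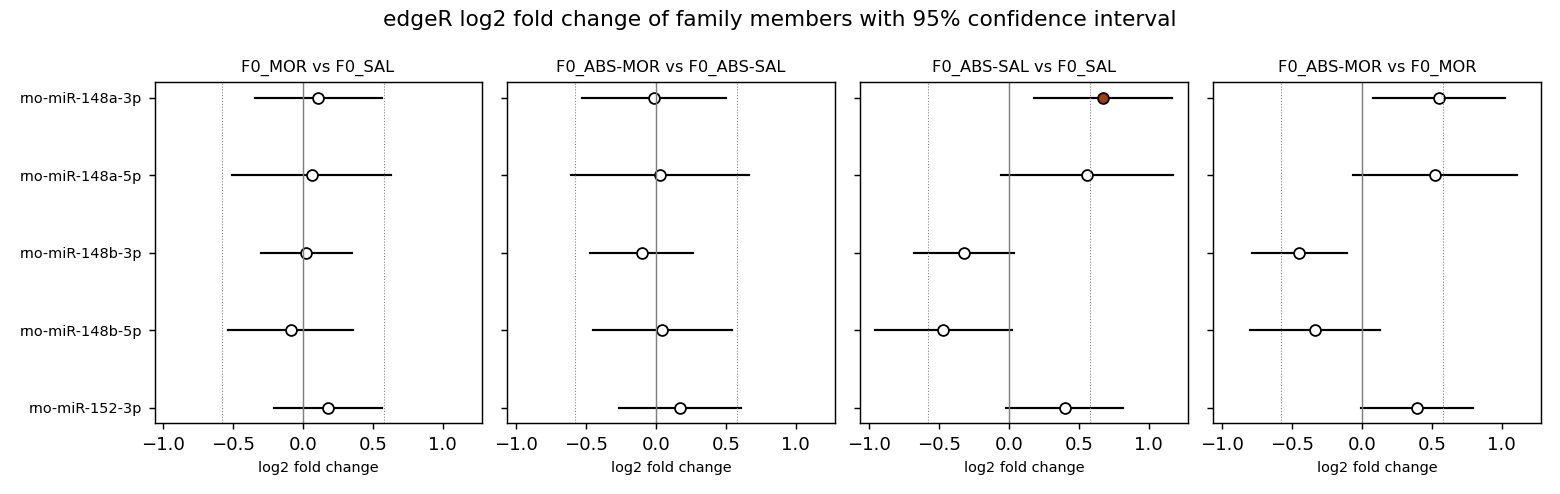
edgeR log2 fold change (horizontal axis) of the 5 members tested in each of the 4 pairwise comparisons, with 95% confidence intervals as lines, a filled point where the member was called and dotted lines at the fold change threshold of 0.58. The 1 filled point is rno-miR-148a-3p between F0_ABS-SAL and F0_SAL, and in the treatment comparisons every interval crosses 0.

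The timepoint comparisons of saline-exposed and morphine-exposed males share no library. In both, the log2 fold changes of rno-miR-148a-3p, rno-miR-148a-5p and rno-miR-152-3p were above 0 and those of both strands of Mir148b were under 0, except that with total count alone rno-miR-148b-3p was at 0.04 in the saline groups. Most of these estimates did not pass the test. The medians over the 5 members, 0.40 and 0.39, were the values of rno-miR-152-3p, which was not called. Members differed in sign, so these medians describe no shared rise of the family. Over all 317 miRNAs the medians were 0.00 and 0.00. With total count alone, the median of all miRNAs shifted by 0.39 in the saline and 0.18 in the morphine groups. Under that scaling 3 members were called higher in each, rno-miR-148a-3p, rno-miR-148a-5p and rno-miR-152-3p. Calls over all miRNAs went from 71 higher and 34 lower to 110 higher and 1 lower in the saline groups, and in the morphine groups from 35 and 32 to 57 and 14.

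**Figure D3:**
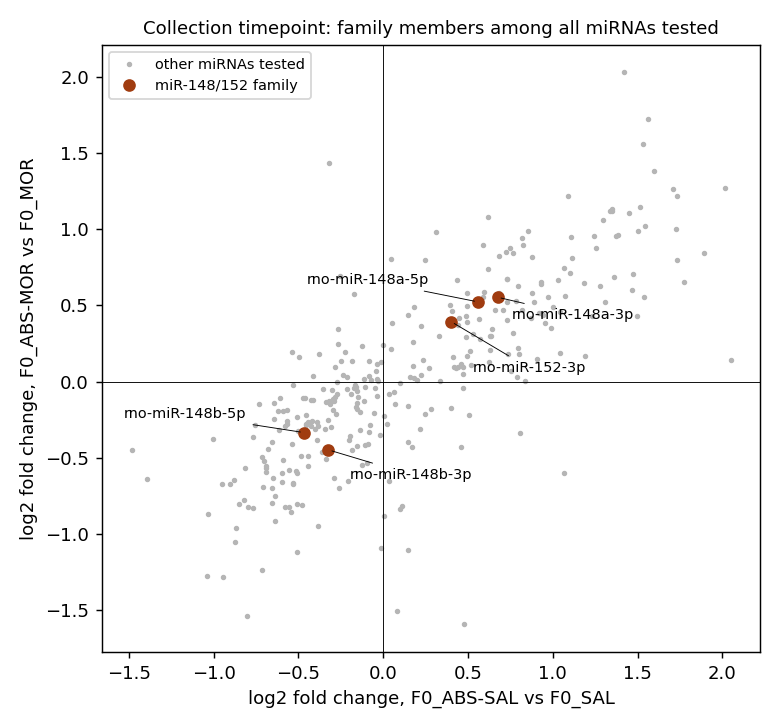
Log2 fold change after abstinence in the saline (horizontal axis) and morphine groups (vertical axis) for each of the 317 miRNAs tested, with 1 point per miRNA and the 5 family members in red. rno-miR-148a-3p, rno-miR-148a-5p and rno-miR-152-3p lie in the upper right, and both strands of Mir148b in the lower left under TMM scaling (with total count alone rno-miR-148b-3p is at 0.04 in the saline groups), within the spread of the other miRNAs.

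The ratio of 2 members within a library does not depend on how libraries are scaled, and was compared next. The ratio of rno-miR-148b-3p to rno-miR-148a-3p was lower after abstinence in both treatments. In F0_SAL there were between 0.109 and 0.230 reads of rno-miR-148b-3p per read of rno-miR-148a-3p, with a median of 0.149. In F0_ABS-SAL the ratio was 0.0529, 0.0814, 0.0933, 0.0956 and 0.0976. In F0_MOR it lay between 0.108 and 0.219, with a median of 0.152, and in F0_ABS-MOR between 0.0398 and 0.0986, with a median of 0.0792. Every abstinent library lay under every nonabstinent library of the same treatment.

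On the log2 scale the ratio averaged -2.71 ± 0.39 (SD, n = 7) for F0_SAL against -3.61 ± 0.37 (SD, n = 5) for F0_ABS-SAL, a difference of -0.90 (two-sided exact permutation test, p = 0.00379, adjusted p = 0.0227 over the 12 ratio tests). For F0_MOR it averaged -2.74 ± 0.34 (SD, n = 7), and for F0_ABS-MOR -3.77 ± 0.46 (SD, n = 6), a difference of -1.04 (exact permutation test, p = 5.83e-04, the smallest these group sizes allow, adjusted p = 0.00699). The ratio was thus 0.537 and 0.488 times its nonabstinent value. Without library R the saline difference was -0.74 and its adjusted p was 0.0545, and without library Q the morphine difference was -0.86. Library R and library Q, the lowest in this ratio, held the highest shares of smooth muscle miRNAs and the lowest shares of sperm markers. The marker difference was not confined to them. Every abstinent library held a larger share of smooth muscle miRNAs (1.81% or more) than every nonabstinent library (1.63% or less). The same was true of endothelial markers (0.0825% or more against 0.0743% or less). The part of these shares in the ratio was not tested. Of the 316 other miRNAs, the ratio to rno-miR-148a-3p had no overlap for 7.28% in the saline and 4.11% in the morphine groups, and was lower in every abstinent library for 6.65% and 3.8%.

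As shares of the reads on the 3p strands, rno-miR-148b-3p had a mean of 13.1% in F0_SAL (9.45% to 18.2%) and 7.47% in F0_ABS-SAL (4.94% to 8.57%), and of 12.8% in F0_MOR (9.50% to 17.3%) and 6.77% in F0_ABS-MOR (3.75% to 8.67%), with lowest and highest library in parentheses. rno-miR-148a-3p went from 83.6% ± 2.93 to 89.3% ± 2.53 and from 83.7% ± 2.89 to 89.7% ± 2.49, which is the same change seen from the other side. The share of rno-miR-152-3p was 3.26% ± 0.716 and 3.25% ± 1.08 in the saline groups and 3.58% ± 0.858 and 3.57% ± 1.36 in the morphine groups.

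The ratio of rno-miR-152-3p to rno-miR-148a-3p did not pass the test in either timepoint comparison. The log2 difference was -0.14 in the saline (exact permutation test, p = 0.597, adjusted p = 0.975) and -0.15 in the morphine groups (p = 0.590, adjusted p = 0.975). The ratio of the 2 strands of Mir148a overlapped between timepoints in both treatments. There were between 167 and 364 reads of the 3p strand per read of the 5p strand in F0_SAL, between 177 and 538 in F0_MOR, between 158 and 441 in F0_ABS-SAL and between 147 and 486 in F0_ABS-MOR. The log2 differences between timepoints were -0.01 and -0.07, each smaller than the SD within groups, which was between 0.51 and 0.76 (exact permutation tests, adjusted p = 0.982 and 0.975).

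**Figure D4:**
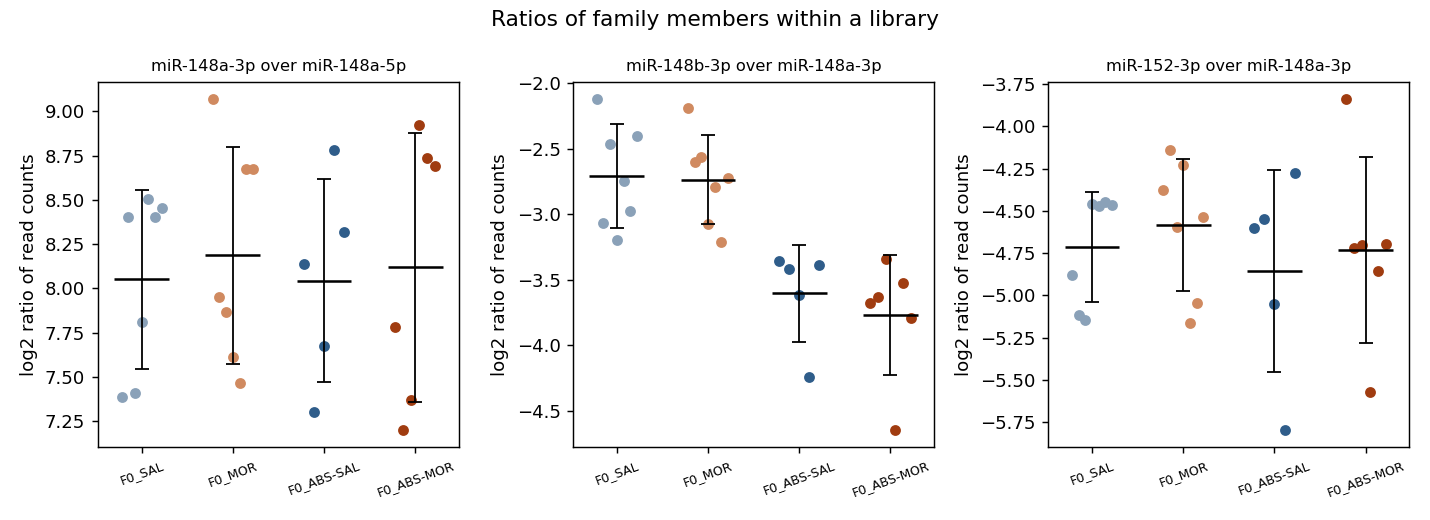
Log2 ratio of raw read counts of 2 family members in the same library, by group, with 1 point per library, a bar at the mean and whiskers of 1 SD (n = 7, 7, 5 and 6). For rno-miR-148b-3p over rno-miR-148a-3p (middle) all abstinent libraries sit at or under -3.34 and all nonabstinent libraries at or above -3.21, whereas the other ratios overlap.

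Treatment was then compared at each timepoint. Between F0_MOR and F0_SAL, 0 of the 5 members were called by edgeR, DESeq2 or limma-voom, 0 had an unadjusted p under 0.05, and edgeR called 0% of all 317 miRNAs. Mean normalized counts of rno-miR-148a-3p were 55516 and 51514, a log2 fold change of 0.11 (95% confidence interval -0.35 to 0.56), whose upper end is a 1.48-fold increase. For rno-miR-148b-3p the means were 8020 and 7899, with a log2 fold change of 0.02 (-0.30 to 0.35). For rno-miR-152-3p they were 2278 and 2015, with 0.18 (-0.21 to 0.56). Adjusted p over the 5 members lay between 0.775 and 0.963 with edgeR. The direction depended on the scaling for both strands of Mir148b, with a log2 fold change of -0.02 for rno-miR-148b-3p under DESeq2 size factors and of 0.14 for rno-miR-148b-5p with total count alone.

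Between F0_ABS-MOR and F0_ABS-SAL, edgeR, DESeq2 and limma-voom again called 0 of the 5 members, 0 had an unadjusted p under 0.05, and edgeR called 0% of all miRNAs. The log2 fold change was -0.01 (95% confidence interval -0.53 to 0.50) for rno-miR-148a-3p, -0.10 (-0.47 to 0.27) for rno-miR-148b-3p and 0.17 (-0.27 to 0.61) for rno-miR-152-3p. With total count alone the value of rno-miR-148a-3p was 0.04. The ratio of rno-miR-148b-3p to rno-miR-148a-3p differed by -0.03 on the log2 scale between F0_MOR and F0_SAL (exact permutation test, p = 0.894) and by -0.17 between F0_ABS-MOR and F0_ABS-SAL (p = 0.537), with adjusted p = 0.975 for both.

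Whether the difference between treatments changed with timepoint was tested as an interaction, defined as the nonabstinent treatment difference (log2) less the abstinent one. edgeR, DESeq2 and limma-voom called 0 of the 5 members, 0 had an unadjusted p under 0.05, and edgeR called 0% of all miRNAs. The interaction was 0.12 (95% confidence interval -0.57 to 0.81) for rno-miR-148a-3p, 0.13 (-0.37 to 0.62) for rno-miR-148b-3p and 0.01 (-0.58 to 0.59) for rno-miR-152-3p, which was -0.02 under DESeq2 size factors. The timepoint difference of rno-miR-148a-3p, called in the saline groups alone, was therefore not shown to differ between treatments.

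How members varied together within groups was described over the 25 libraries, after removing each group's mean from log2 CPM, which are TMM-scaled counts relative to library depth. rno-miR-148a-3p and rno-miR-148b-3p had Pearson's r = 0.49 (permutation p = 0.0256, adjusted p = 0.128 over 10 pairs) and Spearman's rho = 0.37 (permutation p = 0.0853, adjusted p = 0.213). Without libraries R and T, the farthest from the median of rno-miR-148a-3p, r was 0.31. rno-miR-148a-3p and rno-miR-148b-5p had r = -0.52 (permutation p = 0.00748, adjusted p = 0.0748) and rho = -0.42 (p = 0.0497, adjusted p = 0.213), and r = -0.38 without the same libraries. The 2 strands of Mir148a had r = 0.31 and rho = 0.12 (permutation p = 0.169 and 0.577, adjusted p = 0.339 and 0.759). Those of Mir148b had r = -0.09 and rho = -0.09 (permutation p = 0.680 and 0.683, adjusted p = 0.849 and 0.759). All values share the library's scaling. Under TMM 0 of the 10 pairs had an adjusted p under 0.05 on either coefficient. With total count alone 2 pairs did on Spearman's coefficient and 0 on Pearson's. These were rno-miR-148a-3p with rno-miR-148b-3p (rho = 0.55, permutation p = 0.00833, adjusted p = 0.0416, with r = 0.51, permutation p = 0.0153, adjusted p = 0.0766) and rno-miR-148a-3p with rno-miR-148b-5p (rho = -0.57, permutation p = 0.00707, adjusted p = 0.0416, with r = -0.58, permutation p = 0.00562, adjusted p = 0.0562). Without libraries Q and R, the farthest from the median of rno-miR-148a-3p under that scaling, r was 0.52 and -0.46.

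The miRNAs whose within-group pattern over the 25 libraries was most like that of rno-miR-148a-3p were rno-miR-10a-5p (Pearson's r = 0.76), rno-miR-151-3p (0.74) and rno-miR-1b (0.71), where the median r with all 316 other miRNAs was 0.03. For rno-miR-148b-3p they were rno-miR-1843a-5p (0.61), rno-miR-872-3p (0.58) and rno-miR-148a-3p (0.49). For rno-miR-152-3p they were rno-miR-24-2-5p (0.76), rno-miR-221-3p (0.74) and rno-miR-199a-3p (0.68). No miRNA stood among the nearest of more than 1 member. Of those named, rno-miR-24-2-5p and rno-miR-1b were called higher in both timepoint comparisons. rno-miR-10a-5p, rno-miR-221-3p, rno-miR-199a-3p and rno-miR-148a-3p were called higher in the saline groups alone. Over all miRNAs tested, 22.4% were called higher in the saline and 11% in the morphine groups.

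A related seed holds 6 bases of the family's seed, placed 1 base nearer to the 5′ end. rno-miR-130a-3p, shown because it carries the hexamer AGUGCA of the family's seed moved by a base, reads as follows with that hexamer in capitals.
rno-miR-130a-3p: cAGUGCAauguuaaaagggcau
This hexamer stands at bases 2 to 7 of 3 mature miRNAs in the RefSeq table, rno-miR-130a-3p, rno-miR-130b-3p and rno-miR-301b-3p. The fourth miRNA listed for this seed, rno-miR-301a-3p, has no entry by that name in the RefSeq table, so its bases were not searched. Of the 4 miRNAs listed, 1 passed the filter on low counts and 0 were called in any comparison. rno-miR-130a-3p had a normalized count of 128 ± 21.2 (SD, n = 7) in F0_SAL, 119 ± 24.7 (SD, n = 7) in F0_MOR, 121 ± 31.6 (SD, n = 5) in F0_ABS-SAL and 97.2 ± 27.4 (SD, n = 6) in F0_ABS-MOR. Its log2 fold changes between timepoints were -0.08 and -0.29.

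Other miRNAs reported to repress DNA methyltransferases were counted as a list of 10, all of which were tested. Between treatments 0 of 10 were called by edgeR at either timepoint. Between F0_ABS-SAL and F0_SAL, 3 of 10 were called higher, beside 22.4% of all miRNAs, and 0 lower, with a median log2 fold change of 0.05 over the list and 0.00 over all miRNAs. Between F0_ABS-MOR and F0_MOR, 2 of 10 were called higher, beside 11% of all miRNAs, and 0 lower, with medians of 0.16 and 0.00. Those called were rno-miR-143-3p, known for repressing DNMT3A and abundant in smooth muscle, and rno-miR-126a-3p, known from endothelium, in both comparisons, and rno-miR-199a-3p in the saline groups.

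rno-miR-143-3p was the most abundant of the list, with a log2 fold change of 1.10 (SE 0.27, edgeR adjusted p = 0.00366) in the saline and 0.72 (SE 0.26, adjusted p = 0.0564) in the morphine groups. rno-miR-29a-3p, of the miR-29 family that represses DNMT3A and DNMT3B, was the next and was not called. Its mean normalized counts were 6493 ± 1311 (SD, n = 7) for F0_SAL, 5761 ± 477 (SD, n = 5) for F0_ABS-SAL, 6119 ± 834 (SD, n = 7) for F0_MOR and 5941 ± 1084 (SD, n = 6) for F0_ABS-MOR. The log2 fold changes of rno-miR-126a-3p were 1.25 and 0.88, and that of rno-miR-199a-3p was 0.99 in the saline groups. Of the 3 miRNAs called, rno-miR-143-3p and rno-miR-126a-3p also stand on the smooth muscle and endothelial marker lists, and the part of such cells was not tested.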

How the data were processed

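Small RNA libraries of sperm were made with the NEBNext kit, and the authors trimmed and annotated the forward reads with sRNAbench against rn6, allowing a single mismatch, and deposited a matrix of raw counts per mature miRNA, which was used here. A second matrix of other ncRNAs was not used. The columns carry a group code and a letter, so libraries are known by letter, and the codes were matched to the labelled groups by treatment and by number of libraries. Here, counts were tested over all 317 miRNAs that passed filterByExpr with edgeR 4.0.16 (TMM, quasi-likelihood test, 1 model of 4 groups, Benjamini-Hochberg adjustment) in R 4.3.3. DESeq2 1.42.0 and limma 3.58.1 were alternatives. Normalized counts are at the geometric mean library total of 1837036. Ratios used a pseudocount of 0.5 and a two-sided exact permutation test, adjusted over 12 tests and passing under 0.05. Correlations of log2 CPM (prior count 2) used 1e+05 permutations within groups. The fits were tested on simulated data with true log2 changes of 1 in size. They recovered 84.8% for F0_ABS-SAL against F0_SAL and 89.8% for F0_MOR against F0_SAL, with 8 and 6 false calls. In these data 197 of 312 and 197 of 313 miRNAs tested were changed. With so large a share changed, the adjusted p is easier to pass than where few miRNAs differ. In the real comparison of F0_MOR with F0_SAL 0 of 317 were called. The recovery therefore does not tell how often a change of that size would be found there. Smaller changes, such as those of the family, were not simulated. No 2 libraries held identical values. Depth was 1032386 to 3203211 counts per library. The authors kept reads seen at least 2 times, so a listed 0 does not exclude single reads. The members and lists were chosen with earlier results of these data known. Named miRNAs were all family rows, the 3 nearest to each 3p member, and, of the 2 other lists, those called and the 2 most abundant.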

Additional observations from a re-analysis of the deposited data

Results flagged for a closer look

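In F0_ABS-MOR the log2 ratio of rno-miR-148b-3p to rno-miR-148a-3p was -4.65 in library Q, far under the next library at -3.80, a gap of 0.654 of the group's whole range. It was the 1 such library among 36 sets of values examined, where chance alone gives about 1.8. Without library Q the timepoint difference of this ratio in morphine-exposed males was -0.86 and passed the test. Library Q also held the lowest share of sperm marker miRNAs, 21.9%, and the part of this in the ratio was not tested.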

How the results depend on the processing

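No paired analysis was possible because the columns carry letters and no replicate numbers. The call of rno-miR-148a-3p in the saline groups depended on library R, and small differences between treatments changed sign with many settings. For these the cause was not tested. Low counts limited only the passenger strands, and rno-miR-152-5p could not be tested. Depth also differed with timepoint, with median totals of 1701012 (F0_SAL) and 1428308 (F0_MOR) against 2334377 (F0_ABS-SAL) and 2134169 (F0_ABS-MOR). With log2 total count as a covariate, the morphine timepoint value of rno-miR-148a-3p was 0.74 (edgeR adjusted p = 0.0214) and was called. Depth and timepoint cannot be fully told apart here. Leaving out libraries R and Q together was chosen after seeing the data.

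Members called are given with the count called over all miRNAs in parentheses, and the number tested differed with the filter. In the saline timepoint comparison, where 1 member was called (105), total count alone gave 3 (111). limma-voom gave 0 (95) and the fit without libraries R and Q 0 (66). In the morphine timepoint comparison, where 0 were called (67), total count alone gave 3 (71) and no fold change threshold 2 (81). The other settings that changed the count gave 1 each. They were limma-voom (90), no filter (67), at least 10 counts in every library (53), the groups compared alone (67) and log2 total count as a covariate (92). Of the 12 ratio tests 2 passed, and 1 without libraries R and Q. Of the 10 pairs of members 0 were correlated at an adjusted p under 0.05, and 2 with total count alone. Leaving out 1 library at a time gave 0 to 1 members in each timepoint comparison and 1 to 2 ratios.

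Log2 fold changes that changed sign were these. For F0_MOR against F0_SAL, rno-miR-148b-3p was -0.024 with DESeq2 size factors, -0.025 with DESeq2, -0.059 with no filter and -0.058 without libraries R and Q. rno-miR-148b-5p was 0.14 with total count alone and 0.062 with the covariate. rno-miR-148a-5p was -0.041 with limma-voom, -0.015 with no filter and -0.014 without libraries R and Q. rno-miR-148a-3p was -0.042 with the covariate. For F0_ABS-MOR against F0_ABS-SAL, rno-miR-148a-3p was 0.043 with total count alone, 0.074 with limma-voom and 0.18 without libraries R and Q. rno-miR-148b-5p was -0.0086 with limma-voom and -0.011 without libraries R and Q. rno-miR-148b-3p was 0.039 without libraries R and Q. For F0_ABS-SAL against F0_SAL, rno-miR-148b-3p was 0.039 with total count alone. For the interaction, rno-miR-148a-5p was -0.020 with DESeq2 size factors, -0.019 with DESeq2, -0.15 with limma-voom, -0.038 with no filter and -0.14 without libraries R and Q. rno-miR-152-3p was -0.022 with DESeq2 size factors, -0.021 with DESeq2, -0.028 with no filter, -0.036 with the covariate and -0.088 without libraries R and Q. rno-miR-148b-5p was 0.085 with total count alone. rno-miR-148a-3p was -0.046 with limma-voom and -0.14 without libraries R and Q. rno-miR-148b-3p was -0.097 without libraries R and Q.

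Differences of log2 ratios that changed sign were these. For F0_ABS-SAL against F0_SAL, rno-miR-148a-3p over rno-miR-148a-5p was 0.014 with a pseudocount of 5. rno-miR-152-3p over rno-miR-148a-3p was 0.092 without libraries R and Q. For F0_ABS-MOR against F0_MOR, rno-miR-152-3p over rno-miR-148a-3p was 0.021 without libraries R and Q.

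With 1 library left out at a time, log2 fold changes that changed sign had these ranges. For F0_MOR against F0_SAL they were -0.091 to 0.15 for rno-miR-148a-3p, -0.18 to 0.16 for rno-miR-148a-5p and -0.10 to 0.039 for rno-miR-148b-3p. For F0_ABS-MOR against F0_ABS-SAL they were -0.14 to 0.34 for rno-miR-148a-3p, -0.11 to 0.14 for rno-miR-148a-5p and -0.080 to 0.16 for rno-miR-148b-5p. For the interaction they were -0.31 to 0.25 for rno-miR-148a-3p, -0.21 to 0.14 for rno-miR-148a-5p, -0.055 to 0.22 for rno-miR-148b-3p and -0.12 to 0.081 for rno-miR-152-3p. Ranges of the differences in log2 ratios followed. For F0_MOR against F0_SAL they were -0.012 to 0.26 for rno-miR-148a-3p over rno-miR-148a-5p and -0.12 to 0.071 for rno-miR-148b-3p over rno-miR-148a-3p. For F0_ABS-MOR against F0_ABS-SAL they were -0.11 to 0.26 for rno-miR-148a-3p over rno-miR-148a-5p, -0.33 to 0.0096 for rno-miR-148b-3p over rno-miR-148a-3p and -0.11 to 0.29 for rno-miR-152-3p over rno-miR-148a-3p. For F0_ABS-SAL against F0_SAL they were -0.19 to 0.18 for rno-miR-148a-3p over rno-miR-148a-5p and -0.29 to 0.092 for rno-miR-152-3p over rno-miR-148a-3p. For F0_ABS-MOR against F0_MOR they were -0.23 to 0.11 for rno-miR-148a-3p over rno-miR-148a-5p and -0.33 to 0.021 for rno-miR-152-3p over rno-miR-148a-3p.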
